A study of Saccharomyces cerevisiae with 3 samples.

Results

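The last 600 positions of the 18S rRNA, which end at position 2500 of the 35S transcript, were examined in Pol I NET-seq profiles of *hmo1Δ* yeast. They were chosen by position alone and are 600 of the 6858 positions of the 35S gene and 600 of the 1800 positions of 18S. NET-seq (native elongating transcript sequencing) reads the 3′ end of each RNA that is purified with Pol I, so the value at a position is a normalized count of RNAs that end there. Values are in RPM, the reads at a position scaled so that all positions up to the T1 terminator sum to 1000000 in each library. The *hmo1Δ* group comprised 3 replicates, each a separate culture of a strain in which *HMO1* was deleted, grown in YEPD at 30 °C. Both strains carried a histidine and HA tag on the Pol I subunit Rpa135, which was used for the purification. WT is given only as the median that the authors computed over its replicates, together with their coefficient of variation. The single WT libraries belong to another series and were not used here, so no test between the strains could be run, and an effect of the strain cannot be told apart from one of the library series. The words higher and lower below describe single *hmo1Δ* libraries or their mean against that fixed WT value.

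Hmo1 is an HMG-box protein that coats the actively transcribed rDNA repeats, which lack most histones. Pol I transcribes 18S, 5.8S and 25S as parts of 1 precursor, and the RNA is modified, cut and packed with ribosomal proteins while it is still being made. Most of the 3′ part of 18S folds into the head of the small ribosomal subunit. It is followed by the long helix that carries the decoding site and by a short last helix, whose loop holds a pair of neighbouring adenosines that Dim1 dimethylates. The endonuclease Nob1 makes the final cut at the 3′ end of 18S. The paper notes that mature rRNA is carried along in such purifications, and inside 18S the 3′ ends of mature, cut or degraded rRNA cannot be told apart from those of nascent RNA.

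The 600 positions lie on chromosome XII from 465070 to 465669 (assembly R64) in *RDN18-2*, which is the 18S part of *RDN37-2* and is transcribed toward the lower coordinate. Nucleotides of mature 18S are numbered by subtracting 700, so they are nucleotides 1201 to 1800 of 18S. The 5 stretches of 50 nucleotides on which the results turn are given as RNA, 5′ to 3′, from the base column of the deposited table. Capitals mark the bases at positions named in the text by a fixed rule and at peaks of either strain, and each is taken as the last base of the RNA that ends there. Whether the table counts positions in this way or with an offset of 1 is not given in the sources used here and was not tested, and statements on the last base depend on it. All 5 are on the minus strand.
Positions 1926 to 1975, chrXII:465595-465644, shown for WT peaks that were lower in *hmo1Δ* and for position 1972, which was higher: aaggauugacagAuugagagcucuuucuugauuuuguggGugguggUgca
Positions 2001 to 2050, chrXII:465520-465569, shown for the longest run of positions below WT: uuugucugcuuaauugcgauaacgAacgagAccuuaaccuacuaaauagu
Positions 2201 to 2250, chrXII:465320-465369, shown for the window with the highest ratio: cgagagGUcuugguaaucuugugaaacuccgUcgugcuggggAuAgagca
Positions 2376 to 2425, chrXII:465145-465194, shown for a pair of peaks that were higher in *hmo1Δ* and the trough after them: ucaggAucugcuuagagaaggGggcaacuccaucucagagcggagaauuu
Positions 2451 to 2500, chrXII:465070-465119, shown for the 3′ end of 18S, where positions far above and well below WT lie close together: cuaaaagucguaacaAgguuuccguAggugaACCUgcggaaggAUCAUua

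At 99.93% or more of the positions in each library, values were whole multiples of what 1 read is worth. This gave 1984305 to 3700346 reads per library up to T1. The 600 positions held 287482, 162053 and 216738 reads in *hmo1Δ* replicates 1, 2 and 3. The median position held 375.5, 198 and 268 reads, which corresponds to counting errors of 5.16%, 7.11% and 6.11%. Replicates differed by more than counting noise, with chi-square per degree of freedom of 3.71 to 5.59 for the 3 pairs, so none was a copy of another. The coefficient of variation at a position had a median of 10.1% in *hmo1Δ*, and the coefficient the authors give for WT had a median of 9.13% over the same positions. Positions 2499 and 2500, the last nucleotides of 18S, are listed at 0 in every library and in WT.

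In sum, the stretch held nearly as much signal in *hmo1Δ* as in WT, but the signal was placed differently. Summed occupancy was 77691, 81667 and 77124 RPM in *hmo1Δ* replicates 1, 2 and 3, against 82402 RPM for the WT median. All 3 replicates were below WT, by a mean log2 ratio of -0.06 ± 0.04 (SD, n = 3). The sign of this small difference depended on the 3′ end of 18S and on the scaling. Without the last 10 positions the log2 ratio was 0.01 ± 0.05, with replicate 2 above WT and replicates 1 and 3 below. Scaled to the 18S total in place of the gene total, it was 0.09 ± 0.04. The median occupancy per position was 101, 99.8 and 95.4 RPM in *hmo1Δ* and 92.4 RPM in WT, so the middle of the distribution was higher while the sum was lower.

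**Figure D1:**
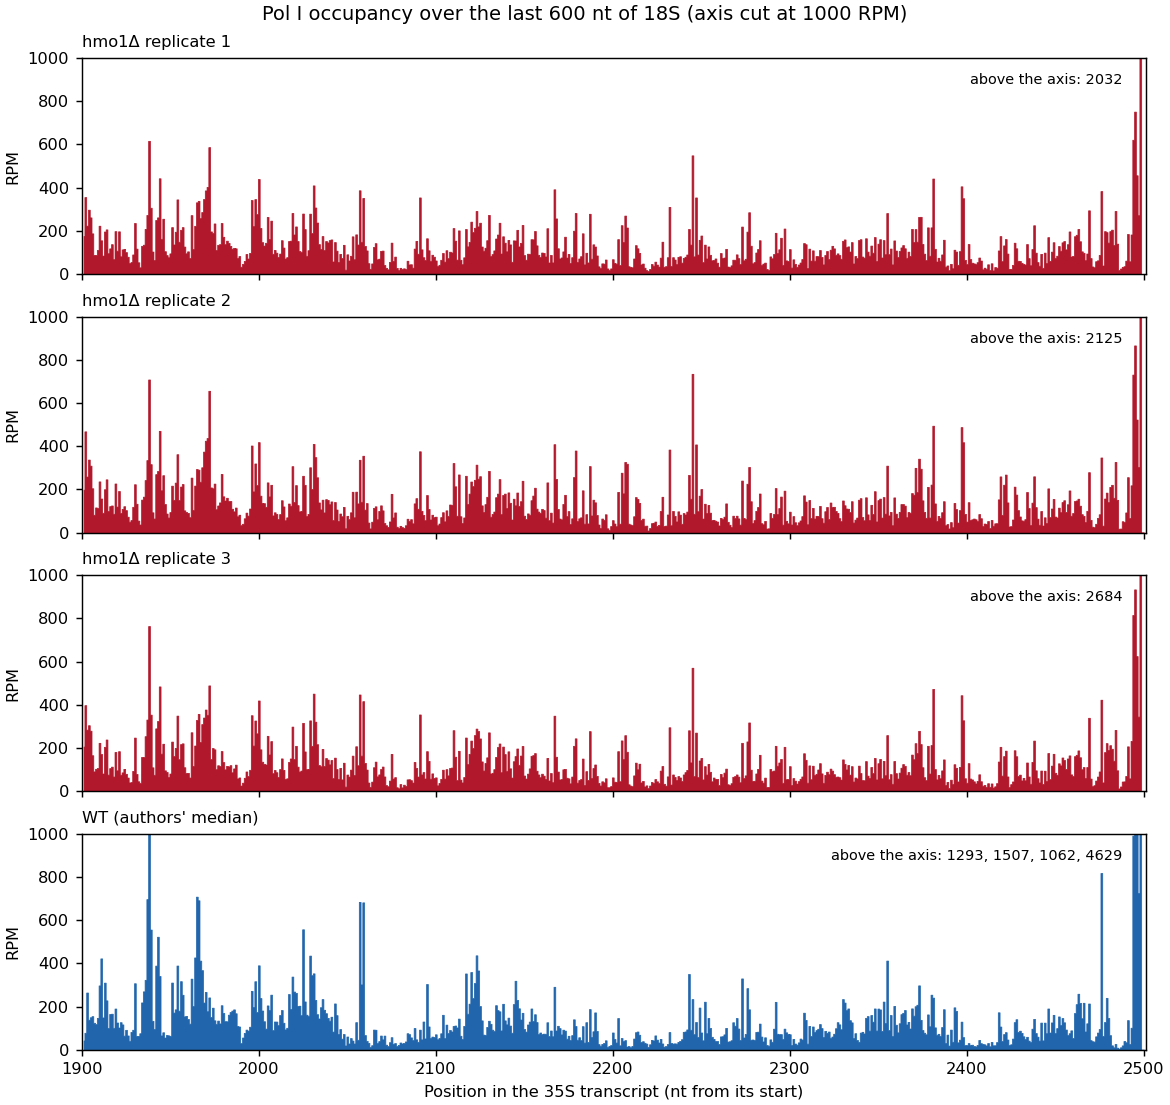
Occupancy in RPM (y axis, cut at 1000 RPM) at each of the last 600 positions of 18S (x axis, nucleotides from the start of the 35S transcript) for 3 *hmo1Δ* replicates and the authors' WT median. The *hmo1Δ* replicates share the 14 peaks of replicate 1, only position 2498 passes 1000 RPM in them, and 4 positions pass it in WT.

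Signal was less concentrated in a few peaks in *hmo1Δ*. The highest 5% of positions, 30 of 600, held 18.2%, 19.0% and 20.4% of the occupancy of the stretch in *hmo1Δ* replicates 1, 2 and 3, and 26.7% in WT. All 3 libraries were thus under the WT value, by more than their SD of 1.09. Without the last 10 positions the shares were 16.3% ± 0.54 (SD, n = 3) in *hmo1Δ* and 20.2% in WT. Of their own top 30 positions, the *hmo1Δ* replicates shared 13, 11 and 16 with the WT top 30. Pairs of *hmo1Δ* replicates shared 24 to 27.

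Each of the 3 libraries exceeded WT at 233 positions (38.8%), against 44.2% of all positions of the gene, and each was below it at 251 positions (41.8%), against 37.2% of the gene. Neither share is far from that of the whole gene. The split depended on the scaling, since 293 positions were above and 196 below when each library was scaled to its 18S total. The shares over the whole gene were not computed at that scaling, so this second split cannot be read as a trait of the stretch. With the WT value widened by the authors' coefficient of variation, 192 positions (32.0%) were above and 200 (33.3%) below, against 36.4% and 27.9% of the gene. The balance changed with the size of the difference, both here and over the whole gene. With a margin of 2-fold in every replicate, which was chosen after the data were seen, 57 positions (9.50%) were above and 5 (0.833%) below, against 12.5% and 1.72% of the gene. Both shares were lower than those of the whole gene. The 57 positions had a median of 141 RPM in *hmo1Δ* and 39.4 RPM in WT. The margin itself favours positions that are low in WT among those above and high in WT among those below. The 57 gathered in windows 2201 to 2250 with 14, 2051 to 2100 with 13, 2451 to 2500 with 8 and 2401 to 2450 with 7. The 5 positions below were 1911, 1933, 1937, 1965 and 2497. At 4 of them the WT median was between 423 and 725 RPM, and at position 1933 it was 76.3 RPM.

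The rank order of positions in *hmo1Δ* differed from WT more than replicates differed among themselves. Over the 600 positions the Spearman coefficient with the WT median was 0.788, 0.739 and 0.794 for *hmo1Δ* replicates 1, 2 and 3, and it was 0.967 to 0.976 between replicates. Neighbouring positions are not independent, so these coefficients are descriptions. As another measure, 20.3%, 22.5% and 18.6% of the occupancy of the stretch would have to be moved to other positions to turn the profiles of replicates 1, 2 and 3 into the WT profile. Between replicates this share was 5.58% to 7.19%.

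The same measures were taken over the other parts of 18S of equal length. The log2 ratio of summed occupancy was higher in the last 600 positions than in the first 600 of 18S by 0.08, 0.18 and 0.08 in replicates 1, 2 and 3, and higher than in the middle 600 by 0.10, 0.19 and 0.11. The first 600 positions were at -0.18 ± 0.01 (SD, n = 3) and the middle 600 at -0.20 ± 0.01. The share placed differently from WT was larger in the last 600 positions in 3 of 3 replicates, by 5.57 ± 0.54 percentage points (SD) than in the first 600 and by 2.66 ± 0.94 points than in the middle 600. The Spearman coefficient with WT was lower in 3 of 3 replicates, by a difference of -0.06 ± 0.01 from the first 600 and -0.04 ± 0.02 from the middle 600. Each of these 6 differences gave an exact two-sided sign-flip permutation *p* of 0.25, the smallest that 3 replicates allow, so none can pass 0.05.

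**Figure D2:**
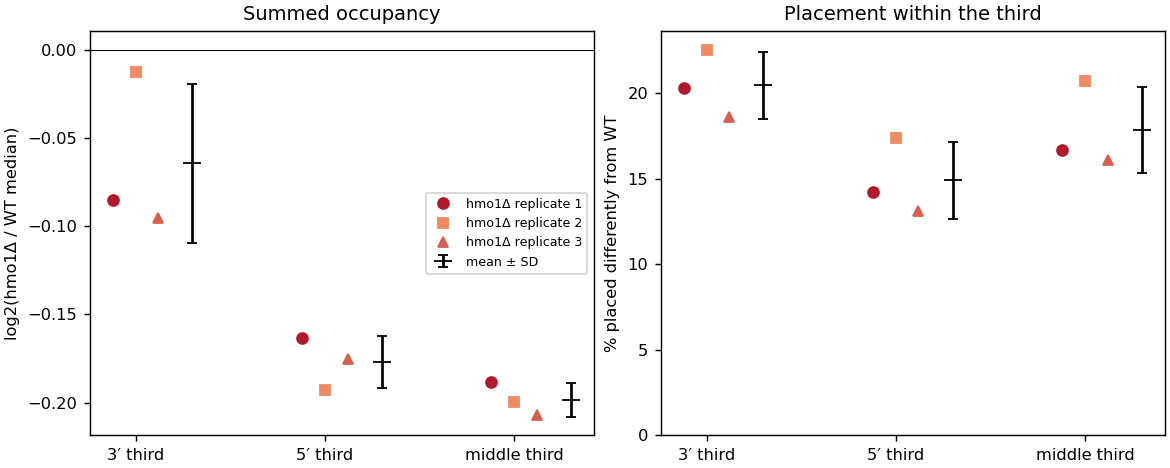
Left, log2 ratio of summed occupancy (*hmo1Δ* over the WT median, y axis), and right, percent of occupancy placed differently from WT (y axis), for the last, first and middle 600 positions of 18S (x axis). Points are *hmo1Δ* replicates and bars the mean ± SD (n = 3); in the right panel the last 600 positions had 18.6% to 22.5%, and each replicate was highest there.

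Along the stretch, windows above WT and windows below it were both found. Of 12 windows of 50 positions, 5 exceeded WT in every library and 6 were below it in every library, against 46.7% and 35% of the 137 windows of the gene. Scaled to the 18S total, 7 windows were above and 2 below, and the shares over the gene were not computed at that scaling. The first 3 windows were all lower in *hmo1Δ* at the scaling of the files. The first window averaged 174 ± 8.4 RPM in *hmo1Δ* and 201 RPM in WT, and positions 1951 to 2000 averaged 195 ± 7.75 RPM in *hmo1Δ* and 217 RPM in WT (SD, n = 3). Positions 2001 to 2050 averaged 152, 145 and 148 RPM in *hmo1Δ* replicates 1, 2 and 3 against 183 RPM in WT, a log2 ratio of -0.30 ± 0.04 (SD, n = 3). This window held the longest run of positions with every *hmo1Δ* replicate below WT, the 22 positions 2009 to 2030. Their mean was 146 ± 4.21 RPM in *hmo1Δ* and 218 RPM in WT. A longer run of 35 positions lay in the middle of 18S, at positions 1538 to 1572.

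The windows with higher values followed. Positions 2051 to 2100 were at 99.4 ± 1.5 RPM in *hmo1Δ* and 87.8 RPM in WT (SD, n = 3). Positions 2151 to 2200 were at 108, 112 and 91.2 RPM in *hmo1Δ* replicates 1, 2 and 3 and at 86.2 RPM in WT, so replicate 3 lay closest to WT. The highest ratio was at positions 2201 to 2250, with 104, 123 and 101 RPM in *hmo1Δ* replicates 1, 2 and 3 against 61.6 RPM in WT. Its log2 ratio was 0.82 ± 0.15 (SD, n = 3), and it was positive in each replicate, at 0.76, 1.00 and 0.71. Next was positions 2401 to 2450, with 75.6, 95.2 and 80.1 RPM in *hmo1Δ* against 65.0 RPM in WT. Its log2 ratio of 0.36 ± 0.17 (SD, n = 3) had its highest value in replicate 2, at 0.55, while replicates 1 and 3 were at 0.22 and 0.30. In window 2351 to 2400 the replicates fell on both sides of WT, with a log2 ratio of 0.02 ± 0.09 (SD, n = 3).

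Differences in the remaining windows were small, except at the end. Positions 2301 to 2350 were at 92.1 ± 6.39 RPM in *hmo1Δ* and 100 RPM in WT. This window contains the motif CACACCGCC at positions 2332 to 2340, part of a sequence beside the decoding helix that is nearly the same in the small-subunit rRNA of all organisms. The motif occurs once in the 6858 nucleotides of the gene and its reverse complement does not occur, and 9.46% of all stretches of 600 nucleotides of the gene hold it. Positions 2251 to 2300 were at 90.0 ± 0.36 RPM in *hmo1Δ* and 86.1 RPM in WT, and positions 2101 to 2150 at 145 ± 5.38 RPM in *hmo1Δ* and 155 RPM in WT. The last window, positions 2451 to 2500, was at 193, 198 and 220 RPM in *hmo1Δ* against 277 RPM in WT, a log2 ratio of -0.45 ± 0.10 (SD, n = 3).

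**Figure D3:**
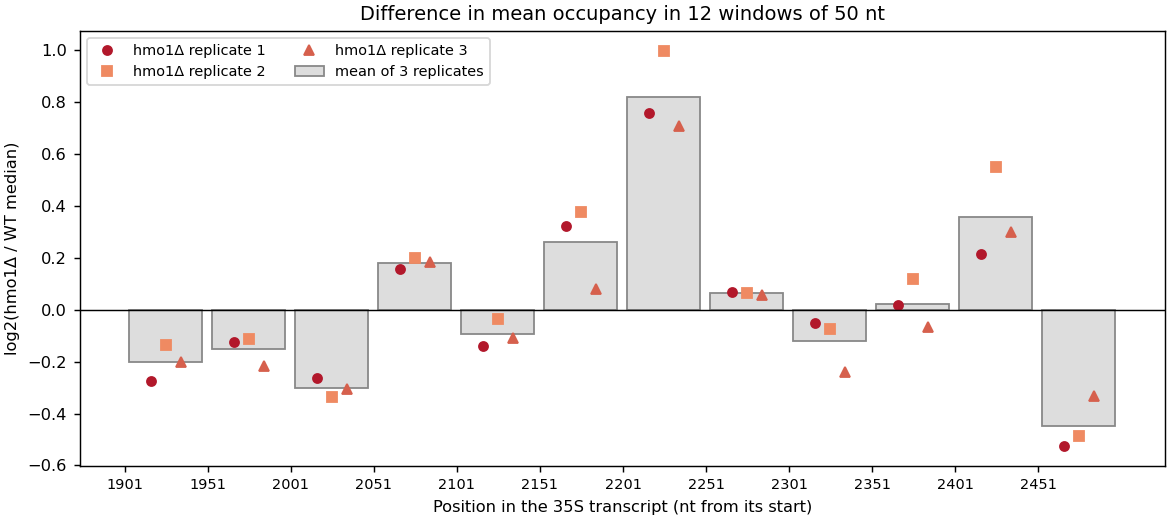
Log2 ratio of mean occupancy, *hmo1Δ* replicate over the WT median (y axis), in 12 windows of 50 positions (x axis, first position of each window in the 35S transcript). Points are replicates and bars their mean; the window from 2201 stands highest at 0.82 and the window from 2451 lowest at -0.45.

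Peaks were taken as positions that were the highest within 10 positions on each side and reached 3 times the median of the stretch. The *hmo1Δ* median had 15 peaks and the WT median 16. Of the *hmo1Δ* peaks, 7 (46.7%) lay within 2 positions of a WT peak. The single replicates had 14, 21 and 16 peaks, of which 50%, 42.9% and 50% were matched in WT. Between replicates, all 14 peaks of replicate 1 were matched in replicates 2 and 3. Of the 21 peaks of replicate 2, 66.7% were matched in replicate 1 and 76.2% in replicate 3, and of the 16 peaks of replicate 3, 87.5% were matched in replicate 1 and 100% in replicate 2. Of the shared peaks, 6 lay at the same position in both strains, which were 1938, 2000, 2057, 2167, 2476 and 2498. The seventh was at 2245 in *hmo1Δ* and 2243 in WT.

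Of the 9 WT peaks without a match, 6 had an *hmo1Δ* peak within 10 positions, downstream of the WT peak in 4 cases and upstream in 2. How many would have one if peaks were placed without regard to WT was not computed. Neither this share nor that of matched peaks was computed for the rest of the gene, so no shift of peaks can be read from them. The *hmo1Δ* peaks at 1972, 2031, 2277 and 2381 lay 7, 6, 4 and 8 positions downstream of the WT peaks at 1965, 2025, 2273 and 2373. The *hmo1Δ* peaks at 1902 and 2091 lay 9 and 4 positions upstream of the WT peaks at 1911 and 2095. WT peaks at 2123, 2145 and 2355 had no *hmo1Δ* peak within 10 positions, and *hmo1Δ* peaks at 2232 and 2397 had no WT peak within that distance.

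The first positions of the stretch showed both directions. Position 1902 had 356, 469 and 398 RPM in *hmo1Δ* replicates 1, 2 and 3, against 78.6 RPM in WT, whereas the WT peak at 1911 was lower in each library. Further on, the WT peak of 558 RPM at 2025 had 280, 263 and 316 RPM in *hmo1Δ*. The *hmo1Δ* peak after it, at 2031, had 410, 411 and 452 RPM and differed little from the 354 RPM of WT. Position 2091 had 355, 376 and 355 RPM in *hmo1Δ* against 93 RPM in WT, and position 2095 had 165, 174 and 185 RPM against 304 RPM. The peak at 2057 was shared but lower in *hmo1Δ*, with 388, 337 and 448 RPM against 685 RPM in WT. The shared peaks at 2000 and 2167 were slightly higher, with 440, 419 and 420 RPM against 391 RPM and with 392, 409 and 349 RPM against 291 RPM. Of the WT peaks with no *hmo1Δ* peak near them, 2145 was lowest in *hmo1Δ*, with 155, 126 and 162 RPM against 319 RPM in WT.

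Neighbouring differences of opposite direction were also found in the G- and U-rich sequence at positions 1965 to 1972. Position 1965, the last G of a run of 3, had 332, 294 and 330 RPM in *hmo1Δ* replicates 1, 2 and 3, against 709 RPM in WT. At the end of the UGGUGGU that follows it, position 1972 had 588, 657 and 490 RPM in *hmo1Δ*, against 242 RPM in WT. Every *hmo1Δ* replicate was thus lower at the first position and higher at the second. The coefficient of variation of WT was 7.85% and 19.6% at these positions.

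Upstream of this pair, position 1938 was a high peak in both strains. It had 617, 709 and 765 RPM in *hmo1Δ* and 1293 RPM in WT, and was the fourth highest of the 600 positions in *hmo1Δ* and the third highest in WT. At position 1911 the WT peak of 423 RPM was not a peak in *hmo1Δ*, where the replicates had 156, 158 and 172 RPM. The log2 ratio of -1.42 at position 1911, computed here and below from the *hmo1Δ* median and WT with 1 RPM added to each, was the lowest of the named positions. Those were the 8 highest positions of each strain and the 6 with the highest and the 6 with the lowest ratio among positions that had all replicates on one side and at least 100 RPM in one strain. That level was reached at 343 of the 600 positions, of which 130 had all replicates above WT and 173 below. The shares at that level were not computed for the whole gene, so this split cannot be read as a trait of the stretch. The rule gave 19 positions, and the top 8 of the strains shared 5.

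Window 2201 to 2250 held several of the higher positions. Position 2207 had 271, 327 and 259 RPM in *hmo1Δ* replicates 1, 2 and 3, against 44.3 RPM in WT, and its neighbour 2208 had 215, 319 and 183 RPM, against 15.0 RPM. These are 6.11 and 14.4 times the WT median, with a WT coefficient of variation of 21.4% and 32%. Both positions reached 100 RPM, the level for naming by ratio, only in *hmo1Δ*. The pair belongs to the longest run above WT, the 15 positions 2203 to 2217, with a mean of 112, 140 and 110 RPM in *hmo1Δ* and 48.5 RPM in WT. Position 2232 had 311, 385 and 296 RPM in *hmo1Δ*, against 81.8 RPM in WT. Position 2245 was the sixth highest in *hmo1Δ*, with 549, 735 and 571 RPM, and had 234 RPM in WT, where the local peak of 351 RPM was at 2243. Position 2243 was lower in *hmo1Δ*, at 209, 267 and 282 RPM. Replicate 2 was the highest of the 3 libraries at 2207, 2208, 2232 and 2245, and the other libraries were above WT at each of them.

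**Figure D4:**
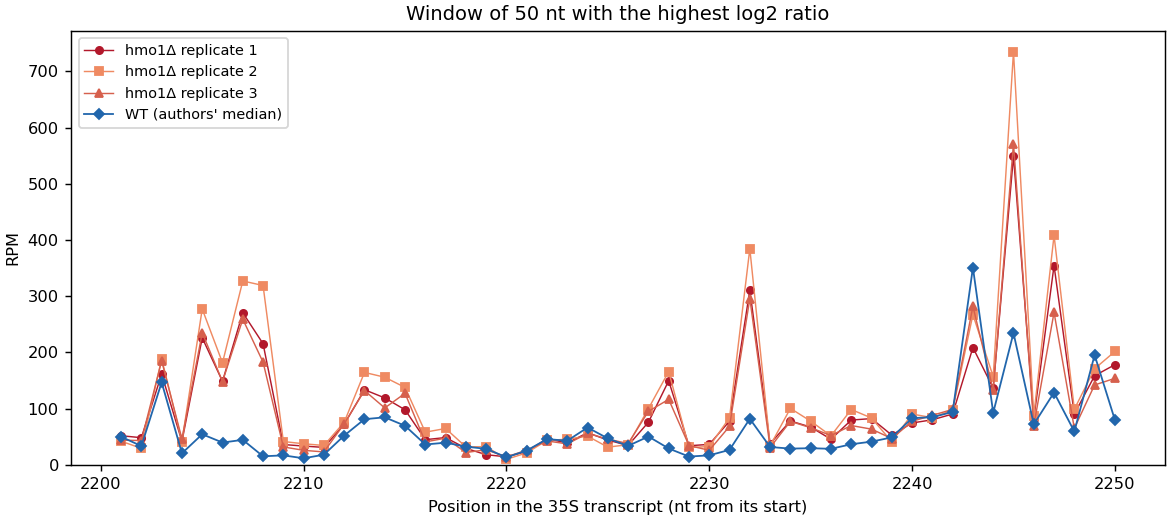
Occupancy in RPM (y axis) at positions 2201 to 2250 (x axis, nucleotides from the start of the 35S transcript) in 3 *hmo1Δ* replicates and the authors' WT median. The replicates exceed WT around 2207, at 2232 and at 2245, where they reach 549 to 735 RPM, and lie at WT level between 2216 and 2226.

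Troughs were compared as stretches of 11 positions. The 3 lowest in *hmo1Δ* were positions 2216 to 2226, 2407 to 2417 and 2077 to 2087, with means of 36.8 ± 1.46, 38.9 ± 7.05 and 39.0 ± 3.85 RPM (SD, n = 3), which did not differ beyond their spread. WT had 37.2, 27.9 and 41.2 RPM in the same stretches. The 3 lowest in WT were positions 2403 to 2413 with 45.3 ± 6.76 RPM in *hmo1Δ* and 24.7 RPM in WT, positions 2072 to 2082 with 48.6 ± 3.73 RPM in *hmo1Δ* and 29.6 RPM in WT, and positions 2482 to 2492 with 115 ± 12.2 RPM in *hmo1Δ* and 31.1 RPM in WT (SD, n = 3). The troughs near 2080 and 2410 were thus low in both strains, and the mean of the 11 positions from 2482 was low only in the WT median. Within them, positions 2486 and 2487 were low in *hmo1Δ* too. Replicates 1, 2 and 3 had 18.1, 18.1 and 12.8 RPM at 2486 and 25.4, 18.6 and 21.7 RPM at 2487.

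Before the trough at 2403 to 2413, a pair of peaks was higher in *hmo1Δ*. Position 2381 had 442, 495 and 474 RPM in *hmo1Δ* replicates 1, 2 and 3, against 241 RPM in WT. Position 2397, the middle G of a run of 5, had 406, 488 and 444 RPM in *hmo1Δ* and 130 RPM in WT, and the next G at 2398 had 351, 418 and 328 RPM in *hmo1Δ* and 58.2 RPM in WT. All replicates were above WT at each of these positions.

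In the last 25 nucleotides of 18S, positions far above WT lay a few nucleotides before positions below WT. The motif GUGAACC lies at positions 2478 to 2484, once in the gene and with no copy of its reverse complement, and 9.49% of all stretches of 600 nucleotides of the gene hold it. It covers the loop of the last helix of 18S, and its neighbouring adenosines at 2481 and 2482 are nucleotides 1781 and 1782 of 18S, the pair that Dim1 dimethylates. At the second of them, position 2482, *hmo1Δ* replicates 1, 2 and 3 had 205, 221 and 196 RPM, against 20.3 RPM in WT. Position 2483 had 134, 161 and 141 RPM in *hmo1Δ*, against 11 RPM in WT. Position 2484 had 292, 327 and 284 RPM in *hmo1Δ*, against 26.6 RPM in WT, and position 2485 had 141, 152 and 96.4 RPM, against 9.44 RPM. The 4 positions were 10.1, 12.8, 11 and 14.9 times the WT median, and together, as a group chosen after the values were seen, they had a log2 ratio of 3.53 ± 0.13 (SD, n = 3). The authors' coefficient of variation of WT was 1.30% to 19.5% at these positions. Their medians reached 100 RPM, the level for naming by ratio, only in *hmo1Δ*, and the rule took the highest ratios. High multiples of a low WT value are thus partly set by that choice.

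The positions on either side of these 4 differed less. At position 2480, the G before the adenosines, *hmo1Δ* had 145, 141 and 190 RPM and WT had 147 RPM, so the libraries lay on both sides of WT. At position 2481 *hmo1Δ* had 198, 212 and 213 RPM and WT 67.2 RPM, with a WT coefficient of variation of 29.0%. After 2485 all 3 *hmo1Δ* libraries were above WT at each position up to 2493 except 2489, where replicate 1 was below it. Position 2486 had 18.1, 18.1 and 12.8 RPM in *hmo1Δ* and 5.52 RPM in WT. Over the 6 positions from 2486 the means were 69.4 ± 10.8 RPM in *hmo1Δ* (SD, n = 3) and 41.4 RPM in WT, a log2 ratio of 0.73 ± 0.22 that was positive in every replicate. Over positions 2482 to 2485 the means were 196 ± 18.2 RPM in *hmo1Δ* (SD, n = 3) and 16.8 RPM in WT. The mean after 2485 was thus lower in *hmo1Δ* and higher in WT.

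The positions next to the 3′ end were lower in *hmo1Δ*. Position 2498, the highest of the stretch in both strains, had 2032, 2125 and 2684 RPM in *hmo1Δ* replicates 1, 2 and 3, against 4629 RPM in WT. Position 2497 had 272, 303 and 345 RPM in *hmo1Δ* against 725 RPM in WT, and position 2496 had 457, 524 and 626 RPM against 1062 RPM. Position 2495 had 752, 867 and 934 RPM in *hmo1Δ* against 1507 RPM in WT, and position 2494 had 622, 732 and 816 RPM against 992 RPM. Every library was below WT at all 5 positions. The shortfall was smallest at 2494, with a log2 ratio of -0.44, and was -0.80 to -1.25 at the 4 positions after it. The last 10 positions made up 5.87%, 6.24% and 7.66% of the stretch in *hmo1Δ* and 11.1% in WT.

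Before the loop, position 2476 had 384, 348 and 423 RPM in *hmo1Δ*, against 819 RPM in WT, and position 2466 had 98.4, 77.6 and 111 RPM in *hmo1Δ*, against 217 RPM. Both were lower in each replicate. The part of mature 18S and of its trimmed or partly degraded ends in the signal of the last window was not tested.

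**Figure D5:**
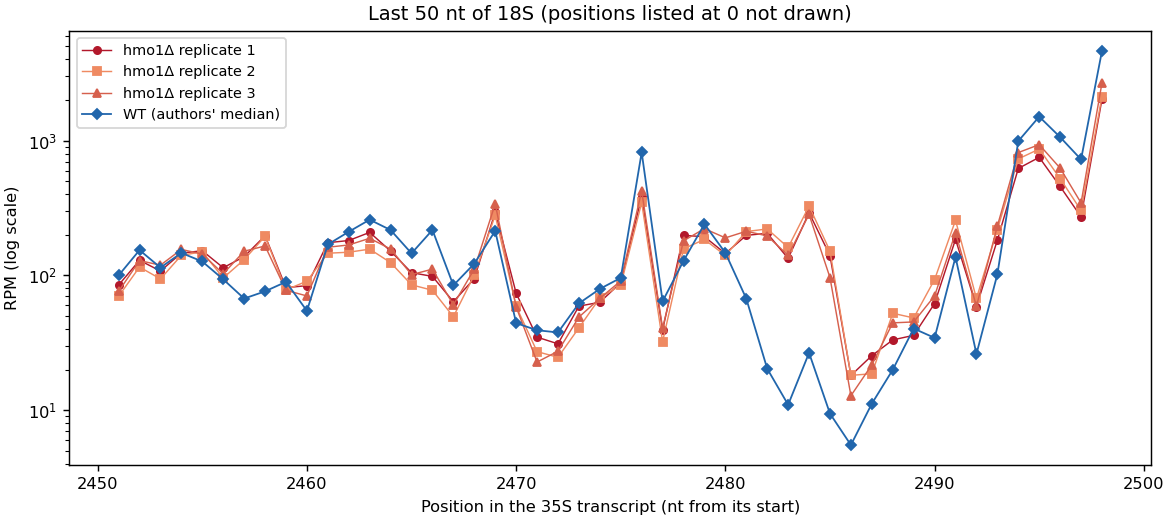
Occupancy in RPM (y axis, log scale) at the last 50 positions of 18S (x axis, nucleotides from the start of the 35S transcript) in 3 *hmo1Δ* replicates and the authors' WT median; positions 2499 and 2500 are listed at 0 and not drawn. At positions 2482 to 2485 the replicates lie at 96.4 to 327 RPM and WT at 9.44 to 26.6 RPM, whereas from 2494 to 2498 WT is higher.

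The base at a position and the bases before it went along with its occupancy. Median occupancy was highest at A, with 147, 150 and 144 RPM in *hmo1Δ* replicates 1, 2 and 3 and 127 RPM in WT, and lowest at G, with 77.8, 82.6 and 73.7 RPM in *hmo1Δ* and 77.8 RPM in WT. The higher median at A in *hmo1Δ* was not a rise at most A positions, where the median log2 ratio was -0.0839. With the base at the position taken as the last base, A was last at 45.6% ± 3.85 (SD, n = 3) of the top 30 positions in *hmo1Δ* and at 50% in WT, where A makes up 24.5% of the stretch. Among the last 10 bases of the RNA at the top 30 positions, G made up 43.7%, 43.0% and 43.0% in *hmo1Δ* replicates 1, 2 and 3, 35.7% in WT and 27.5% at all 600 positions. U made up 36.1% ± 1.64 (SD, n = 3) of the 10 bases before those in *hmo1Δ*, 29.7% in WT and 27.0% overall. Across the 600 positions the log2 ratio had a Pearson correlation of 0.269 with the G content and -0.292 with the U content of the last 10 bases. Neighbouring positions share 9 of these 10 bases, so the coefficients are descriptions without a *p*-value.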

How the data were processed

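The authors removed duplicate reads by their molecular identifier with fqtrim, removed adaptors using cutadapt 3.4, mapped reads to yeast assembly R64 using STAR 2.7.1a and counted positions with BEDTools 2.28.0; versions are from the submitters' processing notes. How reads were assigned among the rDNA copies is not given in the sources used here. The deposited columns hold RPM for 3 *hmo1Δ* replicates and the authors' WT median RPM. A score column deposited by the authors gives the WT coefficient of variation in percent, and another gives the base. The 3 columns of single WT samples, the WT mean, pooled *hmo1Δ* columns and the authors' comparison columns (mean change, ratio and *p*-value) were not used.

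The members and lists were chosen with earlier results of these data known. For each *hmo1Δ* replicate, sums, windows, peaks and ratios to the WT median were computed in Python 3.11.15 with numpy 2.4.6 and pandas 2.3.3, with figures from matplotlib 3.10.9. The named positions were the 8 highest of each strain, and the 6 highest and 6 lowest log2 ratios (pseudocount 1 RPM) among positions of at least 100 RPM in one strain with all replicates on one side, with the 3 lowest stretches of 11 positions per strain and the longest runs. The value of 1 read was found from the steps between low values; 99.93% or more of values were whole within 0.05 of a read. With no second group of samples, no count test could be run. Counting errors cover counting only. Alternatives were other scalings, margins, windows, pseudocounts, peak rules and each replicate left out. Scripts were tested on simulated profiles.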

Additional observations from a re-analysis of the deposited data

How the results depend on the processing

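The log2 ratio of summed occupancy, -0.0645, changed sign under 3 alternatives, to 0.0888 when scaled to the 18S total, 0.00757 without the last 10 positions and 0.0242 without the 6 highest positions. It was -0.121 when the median ratio over the gene was set to 1. The differences of this log2 ratio from the first and middle 600 positions of 18S stayed positive without the last 10 or the 6 highest positions. Those positions were left out of the last 600 only, and their sum was below WT, so leaving them out could only raise the differences. Scaling cannot alter the differences, and a replicate left out cannot change their sign, which was positive in each replicate. The differences in placement and rank order were not recomputed. The median log2 ratio per position was -0.0275, and 0.115 with the 18S scaling, which raises all log2 ratios by 0.153 on average. With a 2-fold margin, chosen after seeing the data, 57 positions (9.50%) were above and 5 (0.833%) below, against 12.5% and 1.72% of the gene. The top 2.5% of positions held 12.4% of occupancy in *hmo1Δ* and 19.6% in WT, the top 10% held 30.1% and 37.5%, and the top 5% without the last 10 positions held 16.3% and 20.2%. The share of *hmo1Δ* peaks matched in WT was 41.7% at a height of 2 times the median, 40.0% with exact matches and 60.0% within 5 positions, and 42.1% to 46.7% with a replicate left out. Of 24 windows of 25 positions, 10 were above and 11 below; of 6 windows of 100, 1 and 3; and with the 18S scaling, 2 of 12 windows of 50 were below. Shares over the windows of the gene were not computed for these alternatives, so these counts cannot be set against the gene. The Spearman coefficient with WT was 0.813 over means of 10 positions. G content before the top positions was 45.8% in *hmo1Δ* and 36.7% in WT for the top 2.5%, 39.6% and 32.2% for the top 10%, and 42.1% and 32.3% without the last 10 positions.

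The 19 named positions kept their direction in all 114 values, which is no sign of robustness. All replicates were on one side of WT at each of them, so a pseudocount or a replicate left out could not change it. Only the 18S scaling could, and its average shift of 0.153 is smaller than the size of each of these ratios. Of 32 values for troughs and runs, 3 changed sign: positions 2216 to 2226 were at 0.139 with the 18S scaling and -0.0463 to 0.00516 with a replicate left out, and positions 2077 to 2087 at 0.0687 with the 18S scaling. No analysis that pairs *hmo1Δ* with WT samples was possible because the samples form a single group. Only the parts of 18S were compared within each replicate.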
